A study of Saccharomyces cerevisiae with 12 samples.

Results

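Budding yeast strains labelled as lacking one of 2 genes, NUP84 or GCR1, were compared with each other through their ratios to wild type. The comparison used the 4 arrays titled nup84 null and the 4 arrays titled gcr1 null, 8 of the 12 arrays in the series, and the other 4 arrays carried a nup84gcr1 double null. All strains and their wild-type controls were Saccharomyces cerevisiae grown with 2% glucose, and the strain background, the selection markers and the growth stage are not stated in the labels. Total RNA was amplified and labelled, and each array held RNA of 1 deletion strain in one dye and wild-type RNA in the other. The question is which transcripts responded to one deletion and not, or oppositely, to the other.

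Gcr1 is a transcriptional activator that works with Gcr2 and Rap1 at the promoters of glycolytic and ribosomal protein genes, and yeast lacking it grows poorly on glucose. Nup84 is a scaffold subunit of the Y-shaped Nup84 complex of the nuclear pore, through which mRNA and proteins pass, and which also contacts active genes at the nuclear envelope. In yeast growing on glucose, glycolytic, fermentative and ribosomal protein genes are among the most heavily transcribed, while genes of respiration, gluconeogenesis and alternative nitrogen sources are held low.

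Values below compare a deletion strain with wild type as log2 ratios, centred on the median of 5636 genes on each array, and a difference is always nup84 null minus the strain labelled gcr1 null. Arrays 1 and 2 of each strain carried the deletion strain in Cy5, and arrays 3 and 4 carried it in Cy3 and were turned in sign. Each strain stands for 2 biological samples with a dye swap each, so n = 2, and sample 1 is given as the mean of arrays 1 and 3 and sample 2 as the mean of arrays 2 and 4. Standard errors (SE) and adjusted p-values are from limma with Benjamini-Hochberg adjustment over 5636 genes and a threshold of 0.05. A gene was called when it passed in a fit of all 12 arrays, which shares 1 estimate of the spread with the double null. A second fit used the 8 arrays of the 2 strains only, since sample 1 and sample 2 lay farther apart in the double null (SD over genes 0.807) than in the nup84 null (0.421) or the strain labelled gcr1 null (0.497). The 2 strains were never hybridised together, and whether they shared wild-type RNA is not labelled. A ratio from whole cultures cannot tell apart fewer cells with a transcript and less of it per cell.

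The deleted genes and the chromosomes were read before anything else. NUP84 (YDL116W) lay at -4.27, -3.26, -2.75 and -2.50 on arrays 1 to 4 of the nup84 null and between -0.54 and -0.46 on the arrays of the other strain. Its difference was -2.70 ± 0.34 (SE; adjusted p = 0.0163), so the nup84 label was borne out. GCR1 (YPL075W) went against its label. It read 0.94, 1.36, 0.86 and 1.17 on the 4 arrays labelled gcr1 null, above wild type at 1.08 ± 0.21 (adjusted p = 0.00453), and 0.47 ± 0.21 in the nup84 null (adjusted p = 0.158). The labels do not say whether its probes lie inside the deleted part, so the strain is called the strain labelled gcr1 null throughout, and every direction drawn from it rests on its label. The 6 other genes of the Nup84 complex differed by 0.11 to 0.62 between the strains and were called by neither fit.

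Arrays 2 and 4 of the nup84 null stood apart on chromosome I. The median of its 89 genes was 0.86 and 0.84 on those arrays, where 85.4% and 92.1% of the genes lay above 0, against -0.10 and 0.14 on arrays 1 and 3 and 0.01 to 0.16 on the arrays of the strain labelled gcr1 null. Medians of chromosomes II to XVI lay between -0.20 and 0.23 on the 8 arrays. Sample 2 of the nup84 null was therefore high along a whole chromosome where sample 1 was not. Its cause was not tested, and genes of chromosome I are given below by sample.

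Mating-type-specific genes also split by sample. The 7 genes specific to a cells had medians of -0.17 and 0.86 in samples 1 and 2 of the nup84 null, and of -0.91 and 0.34 in those labelled gcr1 null. The 5 genes specific to alpha cells had medians of -0.04 and -0.29, and of 0.29 and -0.97. STE6, the exporter gene of a-factor, read -0.24 and 1.26 in the former strain and -0.64 and 1.41 in the latter, and STE3, the a-factor receptor gene of alpha cells, read 0.41 and -0.77, and 1.24 and -0.97. In both strains sample 2 was thus higher than sample 1 in the a-cell median and lower in the alpha-cell median. Not all members followed. AGA2, of the a-cell genes, read 0.01 and 0.14 in samples 1 and 2 of the nup84 null, and 0.56 and -0.08 in those labelled gcr1 null. AFB1, of the alpha-cell genes, read -0.45 and -0.48, and 0.21 and -0.98. Whether the mix of mating types has a part in the results below was not tested. In the difference between the strains these 12 genes gave 0 calls in both fits.

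**Figure D1:**
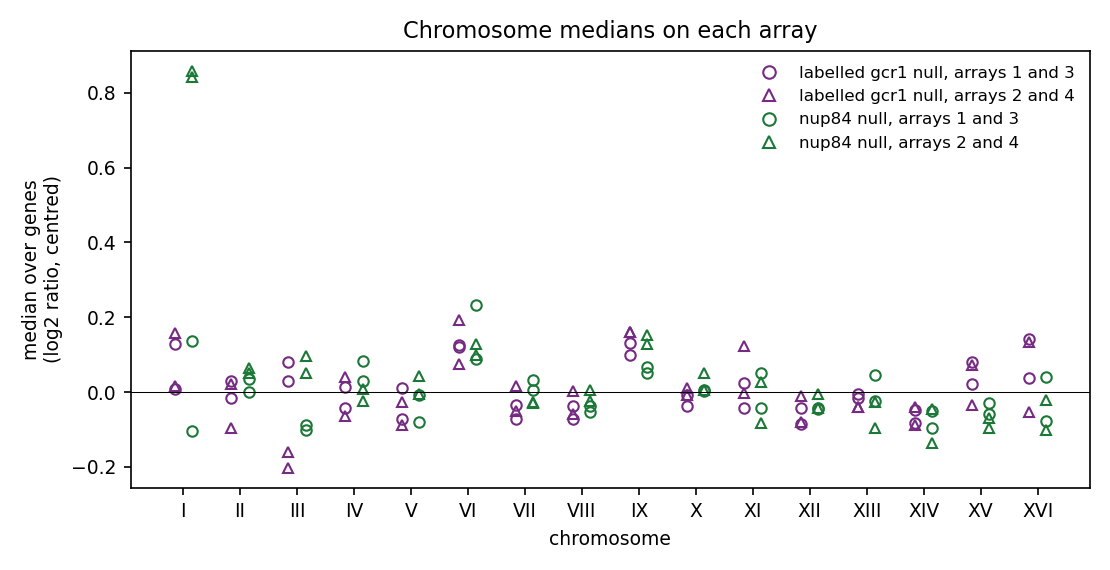
Median log2 ratio to wild type over the genes of each chromosome (y axis) by chromosome (x axis), with 1 point per array, circles for arrays 1 and 3 and triangles for arrays 2 and 4. Arrays 2 and 4 of the nup84 null stand at 0.86 and 0.84 on chromosome I, and the other points, those arrays on other chromosomes included, lie between -0.20 and 0.23.

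The strains differed in how far their transcripts lay from wild type. Ratios spread with an SD over genes of 0.93 in the strain labelled gcr1 null and 0.67 in the nup84 null. The 12-array fit called 1964 genes against wild type in the former (34.8%), of which 969 were higher (17.2%) and 995 lower (17.7%). In the nup84 null it called 941 (16.7%), with 485 above wild type (8.61%) and 456 below (8.09%). The 8-array fit called 2751 genes (48.8%) and 1893 genes (33.6%) in the same order.

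The difference between the strains was called for 29 of 5636 genes (0.515%). The nup84 null was the higher strain for 7 (0.124%) and the lower for 22 (0.39%), with 703 genes at an unadjusted p under 0.05. Called differences were large, from 1.71 to 4.34 on the log2 scale. The 4 arrays of one strain all lay apart from the 4 of the other in 29 of the 29. This gap is no added support, since choosing large differences on these same arrays favours it. Its share over all genes was not counted. The 8-array fit called 423 genes (7.51%), 210 higher (3.73%) and 213 lower (3.78%), and these included all 29. A difference of 2-fold or more was seen in 435 genes, 223 higher and 212 lower. With the array number as a block the count was 1222 on the 12 arrays and 43 on pair means. The count rested on both samples of both strains. For the strain labelled gcr1 null it was 3 without arrays 1 and 3 and 5 without arrays 2 and 4. For the nup84 null the same pairs left 0 and 1, where 332 and 425 genes had an unadjusted p under 0.05 in limma. Leaving out arrays of the double null, on which no difference depends except through the spread, gave 425 without arrays 1 and 3 or 2 and 4.

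**Figure D2:**
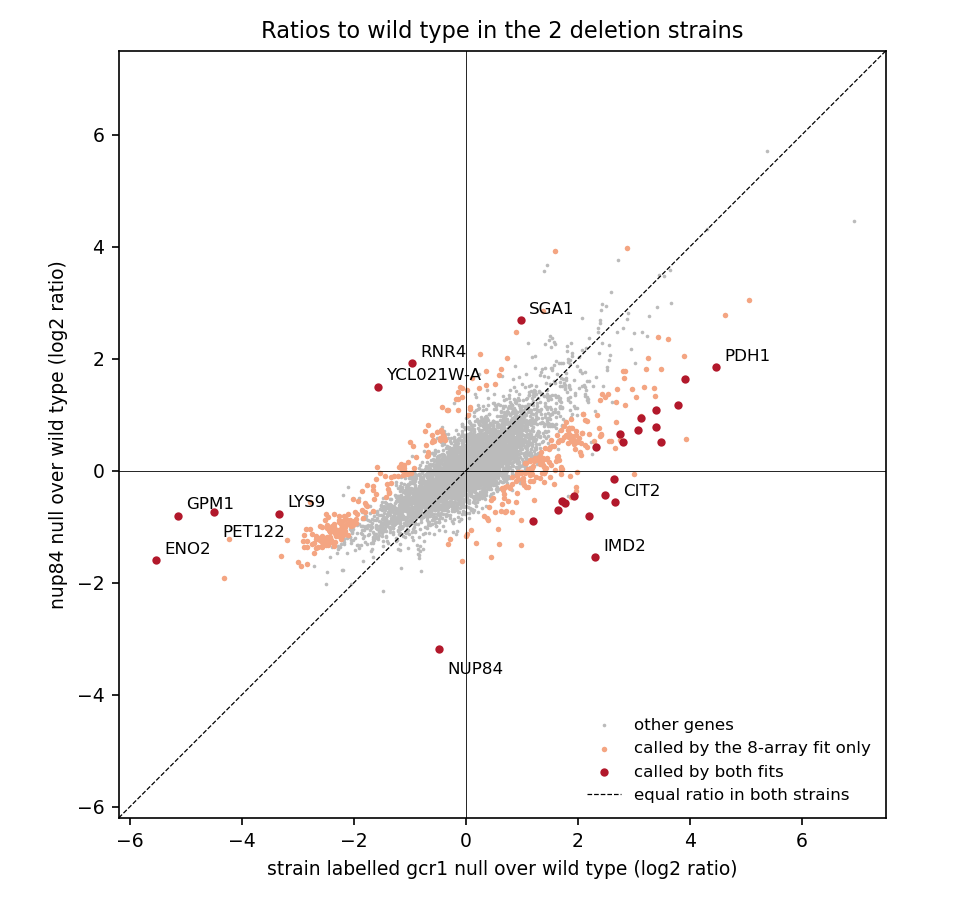
Log2 ratio to wild type in the nup84 null (y axis) against that in the strain labelled gcr1 null (x axis) for 5636 genes, as means of 4 arrays. Dark red points are the 29 genes called by both fits, light orange points the other genes called by the 8-array fit, and the dashed line marks equal ratios; GPM1, ENO2 and PET122 lie far left of it and IMD2 lies at the lower right.

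Genes called in the difference were sorted by their calls against wild type. Of the 29, 5 moved in opposite directions, 1 (NUP84 itself) was called against wild type in the nup84 null only, 16 were called in the strain labelled gcr1 null only, and 7 were called in both strains in the same direction. The class of 16 depended on the fit. The 8-array fit kept 7 of them there, put 6 (GPM1, PET122, LYS9, CIT3, STR3 and JEN1) among those that moved the same way in both strains, and 3 (DIP5, GLO4 and FDC1) among the opposite ones. By that fit the classes held 27, 39, 154 and 202 genes, with 1 gene, ERO1, called against wild type in neither strain. The class with the most genes by that fit holds genes that moved the same way in both strains, and in 193 of the 202 the strain labelled gcr1 null was the farther from wild type.

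The 5 genes called in opposite directions were IMD2, RNR4, YCL021W-A, GLN1 and GLT1. IMD2 encodes IMP dehydrogenase, which makes the guanine nucleotide precursor. It read -1.45, -1.35, -1.43 and -1.95 on the nup84 null arrays and 2.71, 2.19, 2.28 and 2.03 on the arrays labelled gcr1 null. The difference of -3.85 ± 0.63 (adjusted p = 0.0411), 14.4-fold, was the lowest of all genes tested. IMD3, its close relative, differed by -1.89 ± 0.27 in the 8-array fit (adjusted p = 0.00288), and IMD4 by 0.24 ± 0.32 (adjusted p = 0.721). These genes are similar in sequence, and how far their probes tell them apart was not checked.

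RNR4 encodes the small subunit of ribonucleotide reductase, which makes the precursors of DNA. On arrays 1 to 4 it read 2.08, 2.36, 1.71 and 1.56 in the nup84 null and -0.76, -0.50, -1.34 and -1.29 in the strain labelled gcr1 null. It was thus above wild type on all arrays of one strain and below it on all arrays of the other, with a difference of 2.90 ± 0.38 (adjusted p = 0.0187), 7.45-fold. YCL021W-A, a small open reading frame, did the same, with 1.14 to 1.90 in the nup84 null against -1.85 to -1.23, and a difference of 3.07 ± 0.48 (adjusted p = 0.0359).

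GLN1 and GLT1, genes of glutamine and glutamate synthesis, went the other way from RNR4. GLN1, encoding glutamine synthetase, read -0.58, -0.36, -0.98 and -0.89 in the nup84 null and 1.89, 2.06, 1.29 and 1.35 in the strain labelled gcr1 null (difference -2.35 ± 0.28, adjusted p = 0.0128). GLT1, encoding glutamate synthase, read -0.88, -0.51, -1.40 and -0.79 against 0.66 to 1.56 (difference -2.09 ± 0.30, adjusted p = 0.0253). Both genes were below wild type on 4 of 4 nup84 null arrays and above it on 4 of 4 arrays labelled gcr1 null.

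Of the 27 opposite genes of the 8-array fit, 8 were above and 19 below wild type in the nup84 null. The 8 included SPL2, a regulator of phosphate transport (difference 1.51 ± 0.25, adjusted p = 0.00695), CHO2, which methylates phosphatidylethanolamine (1.44 ± 0.26, adjusted p = 0.00913), and PHO3, an acid phosphatase gene (1.22 ± 0.26, adjusted p = 0.0195). Among the 19 were HXT1, the low-affinity glucose transporter gene, at -1.05 in the nup84 null and 0.58 in the strain labelled gcr1 null, and GPD2, which makes glycerol 3-phosphate, at -0.74 and 0.82. CAR1 and CAR2, which break down arginine, differed by -1.43 ± 0.30 and -2.30 ± 0.46 (adjusted p = 0.0171 and 0.0132). CAR2 was uneven between the nup84 null samples, at -2.08 and -2.39 on arrays 1 and 3 and -0.05 and -0.79 on arrays 2 and 4.

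**Figure D3:**
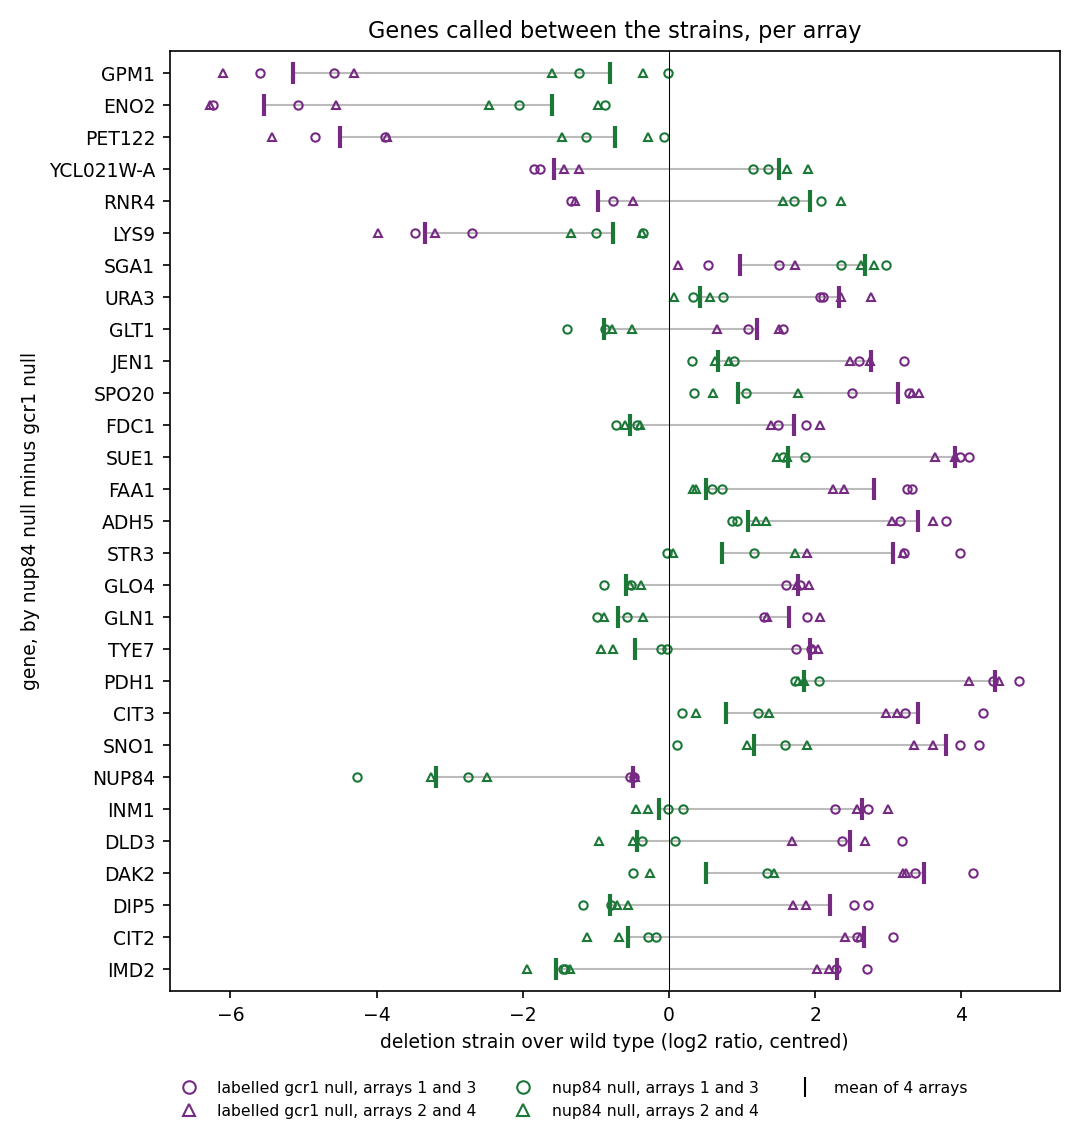
Log2 ratio to wild type on each array (x axis) for the 29 called genes (y axis, ordered by the difference between the strains), purple for the strain labelled gcr1 null and green for the nup84 null. Circles are arrays 1 and 3, triangles arrays 2 and 4, and vertical bars the mean of 4 arrays. For every gene shown the purple and green symbols do not overlap, a gap that choosing large differences favours. IMD2, GLN1, GLT1, RNR4 and YCL021W-A have them on opposite sides of 0.

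Of the 16 genes that the 12-array fit called against wild type in the strain labelled gcr1 null only, 13 rose there and 3 fell. Those that fell were GPM1, PET122 and LYS9. GPM1, the phosphoglycerate mutase gene of glycolysis, read -4.58, -4.31, -5.59 and -6.10 there against -0.02, -0.35, -1.24 and -1.60 in the nup84 null. Its difference of 4.34 ± 0.39 (adjusted p = 0.00612), 20.3-fold, was the highest of all genes tested. The nup84 null arrays all lay below 0 but missed the threshold against wild type (-0.80 ± 0.27, adjusted p = 0.078).

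PET122, which helps translate a mitochondrial mRNA, followed with -3.88, -3.86, -4.84 and -5.43 against -0.06, -0.29, -1.14 and -1.47, and a difference of 3.76 ± 0.34 (adjusted p = 0.00612). LYS9, encoding saccharopine dehydrogenase of lysine synthesis, read -3.34 against -0.77 (difference 2.57 ± 0.36, adjusted p = 0.0242). In all 3 genes the nup84 null lay below wild type by less than 1 on the log2 scale.

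Among the 13 that rose, CIT2 had the largest difference. CIT2, the peroxisomal citrate synthase gene and a known target of the retrograde pathway from mitochondria to nucleus, read 3.07, 2.62, 2.57 and 2.40 there and -0.18, -0.68, -0.29 and -1.12 in the nup84 null. The difference was -3.23 ± 0.39 (adjusted p = 0.0128). DLD3, another known retrograde target, read 2.48 against -0.43 (difference -2.91 ± 0.41, adjusted p = 0.0242). DIP5, the permease gene for glutamate and aspartate, read 2.72, 1.70, 2.53 and 1.87 against -1.18, -0.71, -0.79 and -0.56 (difference -3.01 ± 0.35, adjusted p = 0.0126). These genes were above wild type on all arrays of one strain, and on the nup84 null arrays they lay below it except for DLD3 on array 1, at 0.09. Not all known retrograde targets were called. ACO1, IDH1 and IDH2 differed by -0.16, -0.27 and -0.12 (limma adjusted p = 0.788, 0.594 and 0.828 in the 8-array fit).

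DAK2, which phosphorylates dihydroxyacetone, read 3.49 in the strain labelled gcr1 null and 0.51 in the nup84 null (difference -2.98 ± 0.31, adjusted p = 0.00814), and INM1, an inositol monophosphatase gene, 2.64 and -0.14 (-2.78 ± 0.31, adjusted p = 0.0103). In the nup84 null DAK2 was split by dye, with -0.49 and -0.26 on arrays 1 and 2 and 1.34 and 1.43 on arrays 3 and 4. TYE7, encoding an activator of glycolytic genes, was 1.93 and -0.46 (-2.39 ± 0.36, adjusted p = 0.03). The remaining 7 were CIT3, GLO4, STR3, FAA1, FDC1, JEN1 and URA3, with differences from -2.62 to -1.89. CIT3 is a mitochondrial citrate synthase gene, FAA1 activates fatty acids, and JEN1 is the permease gene for lactate and pyruvate.

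GCR2 and RAP1, which encode the partners of Gcr1, differed by -0.04 ± 0.40 and 0.08 and were called in neither fit. TYE7 was the only 1 of the 10 genes for Gcr1 and related factors called in the difference.

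Fewer transcripts were called against wild type in the nup84 null alone. The 39 such genes of the 8-array fit, 25 above and 14 below wild type, included genes of stress and protein turnover. GTT1, a glutathione transferase gene, read 2.09, 2.59, 1.69 and 1.98 in the nup84 null and 0.76, 0.34, 0.31 and -0.43 in the strain labelled gcr1 null (difference 1.84 ± 0.29, adjusted p = 0.0051). RPN4, encoding the activator of proteasome genes, was 1.56, 1.23, 1.38 and 0.97 against -0.39, 0.50, -0.70 and 0.05 (1.42 ± 0.31, adjusted p = 0.0203). RNR2, the other small subunit gene of ribonucleotide reductase, read 1.76, 2.17, 1.33 and 1.36 against 0.54, 0.38, -0.02 and -0.45 (1.54 ± 0.26, adjusted p = 0.00695). For GTT1, RPN4 and RNR2 every nup84 null array lay above every array of the other strain, a gap that choosing large differences favours.

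PHO84, the high-affinity phosphate permease gene, was 1.32 against -0.07 (1.38 ± 0.25, adjusted p = 0.00932), and SSA4, a stress-induced Hsp70 gene, 1.78 against 0.37 (1.41 ± 0.35, adjusted p = 0.0345). ATO3, a gene of the ammonium export family, was the lowest of the class after NUP84, at -1.55 ± 0.25 against 0.45 ± 0.25 (adjusted p of the difference 0.00271). HXK2, the main hexokinase gene on glucose, was also lower (-1.17 against 0.00, difference -1.16 ± 0.32, adjusted p = 0.0477). None of these passed in the 12-array fit, where their adjusted p ranged from 0.0594 for ATO3 to 0.469 for HXK2.

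Of the 7 called genes that moved the same way in both strains, ENO2, encoding the main enolase, was below wild type in both. It read -5.07, -4.55, -6.24 and -6.28 in the strain labelled gcr1 null and -0.88, -0.98, -2.05 and -2.47 in the nup84 null (difference 3.94 ± 0.32, adjusted p = 0.00623), 15.3-fold. The other 6 were above wild type in both strains. PDH1, of propionate breakdown, was 4.46 and 1.85 (-2.61 ± 0.28, adjusted p = 0.0103), SNO1, of vitamin B6 synthesis, 3.79 and 1.17, and SUE1, ADH5 and SPO20 differed by -2.33 to -2.20.

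SGA1, the glucoamylase gene of sporulation that breaks down glycogen, was the only 1 of these 7 farther from wild type in the nup84 null, at 2.36, 2.62, 2.96 and 2.81 against 0.54, 0.12, 1.51 and 1.73 (difference 1.71 ± 0.28, adjusted p = 0.0385). By the 8-array fit 9 of 202 genes were of this kind. HSP26, a small heat shock protein gene, had the largest difference of them, 2.34 ± 0.25 (adjusted p = 0.000415), with 3.73 to 4.01 on its 4 nup84 null arrays against 1.43 to 1.90. GAD1, glutamate decarboxylase, differed by 1.48 (adjusted p = 0.0103) and GPH1, glycogen phosphorylase, by 1.10 (adjusted p = 0.0241).

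Along glycolysis the contrast was uneven. Of 19 genes from hexokinase to pyruvate kinase, the 12-array fit called 2 higher in the nup84 null (GPM1 and ENO2) and none lower, and the 8-array fit 9 higher and 3 lower. Over all genes the 12-array fit called 0.124% higher and 0.39% lower, and the 8-array fit 3.73% and 3.78%. The counts of glycolysis and of every list below stand beside these shares. The median difference of the 19 was 0.86, against 0.03 over all genes, from medians of -1.43 in the strain labelled gcr1 null and -0.73 in the nup84 null. Against wild type, 12 of the 19 fell and 3 rose in the former, beside 17.7% and 17.2% of all genes. In the latter 4 fell and 3 rose, beside 8.09% and 8.61% of all genes.

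The highest differences lay in the lower steps, after the split into triose phosphates. ENO1, the second enolase gene, differed by 3.01 ± 0.31 in the 8-array fit (adjusted p = 0.000382), with -4.27, -3.22, -5.10 and -4.36 against -0.72, -0.73, -1.65 and -1.82. TPI1, triose phosphate isomerase, differed by 1.96 ± 0.27 (adjusted p = 0.00207), TDH3, the main glyceraldehyde phosphate dehydrogenase gene, by 1.73 ± 0.25 (adjusted p = 0.00314) and PGK1, phosphoglycerate kinase, by 1.56 ± 0.31 (adjusted p = 0.0137). FBA1, aldolase, differed by 1.40 ± 0.25 (adjusted p = 0.00934) and TDH2 by 0.93 ± 0.25 (adjusted p = 0.0455). CDC19, the pyruvate kinase gene, lies on chromosome I. Samples 1 and 2 read -1.16 and 0.05 in the nup84 null against -2.62 and -2.94, with a difference of 2.23 ± 0.36 (adjusted p = 0.006). Sample 1 of the nup84 null lay closer to both samples of the other strain than did sample 2, which carries the shift of chromosome I. The part of that shift was not tested.

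The upper steps and the glucose-repressed isozymes behaved otherwise. PFK1 and PFK2, the phosphofructokinase subunit genes, differed by 0.16 ± 0.25 and -0.34 ± 0.26, and PGI1, phosphoglucose isomerase, by 0.86 ± 0.26, without passing in the 8-array fit (adjusted p = 0.78, 0.495 and 0.0698). HXK1, the hexokinase gene that glucose represses, stood at 4.31 in the strain labelled gcr1 null and 4.32 in the nup84 null, with a difference of 0.00 ± 0.26. GPM2, a homologue of GPM1, was above wild type at 5.05 and 3.04 (difference -2.01 ± 0.28, adjusted p = 0.00271), and GLK1, glucokinase, at 2.81 and 1.78 (-1.03 ± 0.28, adjusted p = 0.0448). Enolase and glyceraldehyde phosphate dehydrogenase genes have near-identical copies, so their probes may share signal.

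**Figure D4:**
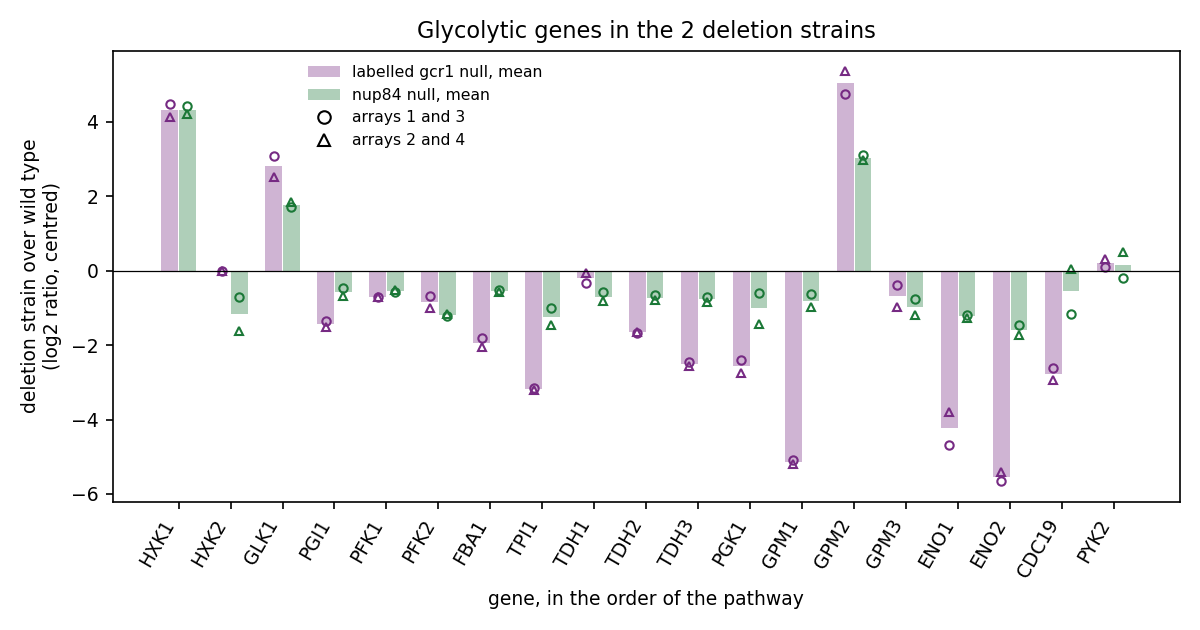
Log2 ratio to wild type (y axis) of the 19 glycolytic genes in pathway order (x axis), as bars for the mean of 4 arrays with circles for sample 1 and triangles for sample 2. Bars of the strain labelled gcr1 null reach -5.53 at ENO2 and -5.15 at GPM1, those of the nup84 null stay above -1.6 throughout, and both strains stand near 4.3 at HXK1.

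From pyruvate to ethanol and acetate, 12 genes gave 1 call, ADH5, which was lower in the nup84 null. The 8-array fit added ADH1, the main fermentative alcohol dehydrogenase gene (-2.43 in the strain labelled gcr1 null and -1.27 in the nup84 null, difference 1.17 ± 0.26, adjusted p = 0.0217), and ALD6, the cytosolic aldehyde dehydrogenase gene (-2.64 and -1.22, difference 1.41, adjusted p = 0.0106).

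Ribosomal protein genes fell in both strains, and farther in the strain labelled gcr1 null. Against wild type 136 of 137 fell there (17.7% of all genes) and 124 of 137 in the nup84 null (8.09% of all genes), with medians of -2.27 and -1.11. The difference lay above 0 for 136 of 137, against 2948 of all 5636 genes. Its median was 1.20, with a lowest value of -0.16 for RPL15B and a highest of 1.80 for RPL11A. The 12-array fit called 0 of the 137 in the difference, and the 8-array fit called 104 higher in the nup84 null, of the 210 genes it called higher in all. RPL11A read -0.70, -1.21, -0.85 and -1.41 in the nup84 null and -2.41, -3.01, -2.57 and -3.40 in the strain labelled gcr1 null (1.80 ± 0.31 in the 8-array fit, adjusted p = 0.0074; adjusted p = 0.0743 in the 12-array fit). Sample medians were -0.97 and -1.25 against -2.05 and -2.54, so the samples of the strains did not overlap. With each array scaled to equal spread the median difference was 0.84 and 0 of the genes were called. Many ribosomal protein genes come in near-identical pairs, so the members are not independent measurements. The 137 were picked by name and include RPP1 (difference 0.16), whose product belongs to RNase P and not to the ribosome.

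Other translation genes gave few calls. Ribosome assembly factors had a median difference of 0.54 over 110 genes, 107 of them above 0, against 2948 of all 5636 genes. The 12-array fit called 0 and the 8-array fit called 2 higher, a share below the 3.73% of all genes. One of the 2, MAK16, lies on chromosome I, at -0.51 and -0.32 in samples 1 and 2 of the nup84 null and -1.93 and -1.28 in those of the strain labelled gcr1 null; the other was SSF1. Translation factors had a median difference of 0.25 over 38 genes, which fell to 0.04, the value of all genes, with arrays scaled to equal spread. They gave 0 and 3 calls, among them EFB1, elongation factor EF-1 beta, also on chromosome I (-0.67 and 0.60 in the nup84 null samples, -1.35 and -1.71 in the others).

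Genes of respiration and of growth without sugar stood higher in the strain labelled gcr1 null. Of 20 gluconeogenesis and glyoxylate cycle genes, 2 were called lower in the nup84 null (CIT2 and JEN1) and 6 by the 8-array fit. Over all genes these fits called 0.39% and 3.78% lower. The median difference of the 20 was -0.59 (-0.32 with arrays scaled to equal spread). The additions included ACH1, which moves acetyl groups between CoA carriers (2.55 against 0.53, difference -2.01 ± 0.29, adjusted p = 0.00314). Not all members followed, since PCK1, the entry enzyme of gluconeogenesis, read 0.88 in the strain labelled gcr1 null and 1.87 in the nup84 null without a call (0.99 ± 0.31, adjusted p = 0.0853), and ICL1, isocitrate lyase, 0.82 and 1.17.

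All 16 TCA cycle genes measured had a difference below 0, against 2688 of all 5636 genes, with a median of -0.37 (-0.21 with arrays scaled). Of the 16, 1 (CIT3) was called, or 2 by the 8-array fit with CIT1, at 3.18 against 1.49 (-1.69 ± 0.31, adjusted p = 0.00995). Over all genes 0.39% and 3.78% were called lower by the 2 fits. Of 39 respiratory chain and ATP synthase genes, 36 had a difference below 0 (median -0.55). The 12-array fit called 0 and the 8-array fit 8, all lower in the nup84 null, against 3.78% of all genes. Among the 8 were COX5A, a cytochrome oxidase subunit gene (1.07 against -0.29, adjusted p = 0.027), and CYC1, the main cytochrome c gene (1.14 against -0.18, adjusted p = 0.0294). Samples of the strain labelled gcr1 null were unequal here, with respiratory medians of 1.45 and 0.74, against 0.45 and 0.36 in the nup84 null. CYC1 spread over 0.16 to 1.94 on the 4 arrays of that strain.

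Nitrogen metabolism and permeases gave 3 calls among 34 genes, DIP5, GLN1 and GLT1, all lower in the nup84 null, and 7 by the 8-array fit, all lower too (median difference -0.41). Over all genes 0.39% and 3.78% were called lower by the 2 fits. MEP1, an ammonium permease gene, was 1.70 against -0.06 (-1.76 ± 0.30, adjusted p = 0.00707) and DAL4, the allantoin permease gene, 1.99 against 0.52 (-1.46 ± 0.25, adjusted p = 0.00707). Lysine synthesis ran the other way. Of 9 genes LYS9 was called, and the 8-array fit added LYS20, homocitrate synthase (-2.01 against -0.51, adjusted p = 0.0151), and LYS1, which completes the pathway (-1.66 against -0.28, adjusted p = 0.0246). LYS2 (difference 1.41, adjusted p = 0.0685) and LYS4 (0.76, adjusted p = 0.159) did not pass, and LYS21, LYS12, LYS14 and LYS5 differed by -0.45 to 0.43.

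The 19 vitamin genes included 1 call, SNO1, and 4 by the 8-array fit, all lower in the nup84 null, against 0.39% and 3.78% of all genes. SNZ1, the partner of SNO1, read 4.63 against 2.78 (-1.85 ± 0.44, adjusted p = 0.0274) and THI4, of thiamine synthesis, 2.60 against 0.53 (-2.07 ± 0.30, adjusted p = 0.00338). Of 10 glycerol genes, DAK2 was called and 4 passed in the 8-array fit, all lower in the nup84 null, against the same shares of all genes. DAK1 read 2.01 against 0.58 and STL1, the glycerol importer gene, 1.01 against -0.13, while GPD1, the isozyme of GPD2, stood at 0.62 in both strains. CHA1, the serine and threonine deaminase gene, fell in both strains, at -4.32 and -1.92 (difference 2.40 ± 0.42, adjusted p = 0.00797 in the 8-array fit).

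Ribonucleotide reductase genes did not move as a block. RNR4 and RNR2 were higher in the nup84 null (above), whereas RNR1, the large subunit gene, differed by 0.36 ± 0.29 and RNR3, the damage-induced large subunit gene, read 1.42 in the strain labelled gcr1 null and 1.21 in the nup84 null (-0.20 ± 0.30, adjusted p = 0.752). Among 27 genes of the reductase and DNA damage response, 1 was called and 4 passed in the 8-array fit, all higher in the nup84 null. Over all genes 0.124% and 3.73% were called higher by the 2 fits. The median difference of the 27 was 0.16 (0.29 with arrays scaled). Besides RNR4 and RNR2, the 4 held MAG1, a DNA repair glycosylase gene (1.13 ± 0.26, adjusted p = 0.0227), and HUG1, an inhibitor of the reductase. HUG1 depended on dye in the strain labelled gcr1 null, with -0.87 and -1.18 on arrays 1 and 2 and 1.40 and 1.61 on arrays 3 and 4, and its arrays overlapped those of the nup84 null, from 0.93 to 1.98.

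Proteasome genes separated the strains by little but in 1 direction. The difference was above 0 for 33 of 33 genes, against 2948 of all 5636. Its median was 0.60, from medians of -0.46 in the strain labelled gcr1 null and 0.19 in the nup84 null. The 12-array fit called 0 of them in the difference and the 8-array fit 4 higher, against 3.73% of all genes. These were RPN4 and the subunit genes RPN6, PRE6 and RPN1 (differences of 1.02, 0.96 and 0.93). Of 20 phosphate genes the 12-array fit called 0 and the 8-array fit 7, against 7.51% of all genes. The nup84 null was higher in 6, such as SPL2, PHO84 and VTC3 (1.22, adjusted p = 0.0197). It was lower in 1, PHO5, the repressible acid phosphatase gene (1.78 in the strain labelled gcr1 null and 0.65 in the nup84 null, -1.13, adjusted p = 0.0453).

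General stress genes rose in both strains. Of 40 genes, 30 rose in the strain labelled gcr1 null (17.2% of all genes) and 31 in the nup84 null (8.61% of all genes). The median difference was 0.23 as centred and 0.76 with arrays scaled to equal spread, so its size depends on the scaling. HSP12, a small heat shock protein gene, stood at 5.37 and 5.70 (0.33 ± 0.39, adjusted p = 0.682). By the 8-array fit 6 were higher in the nup84 null, among them HSP26, GAD1, HSP31 and SSA4, and 1 was lower, SPG4 (3.37 against 1.47). Over all genes that fit called 3.73% higher and 3.78% lower. Of 20 trehalose and glycogen genes, 17 and 14 rose in the strains, and the median difference was 0.04 as centred and 0.49 with arrays scaled.

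**Figure D5:**
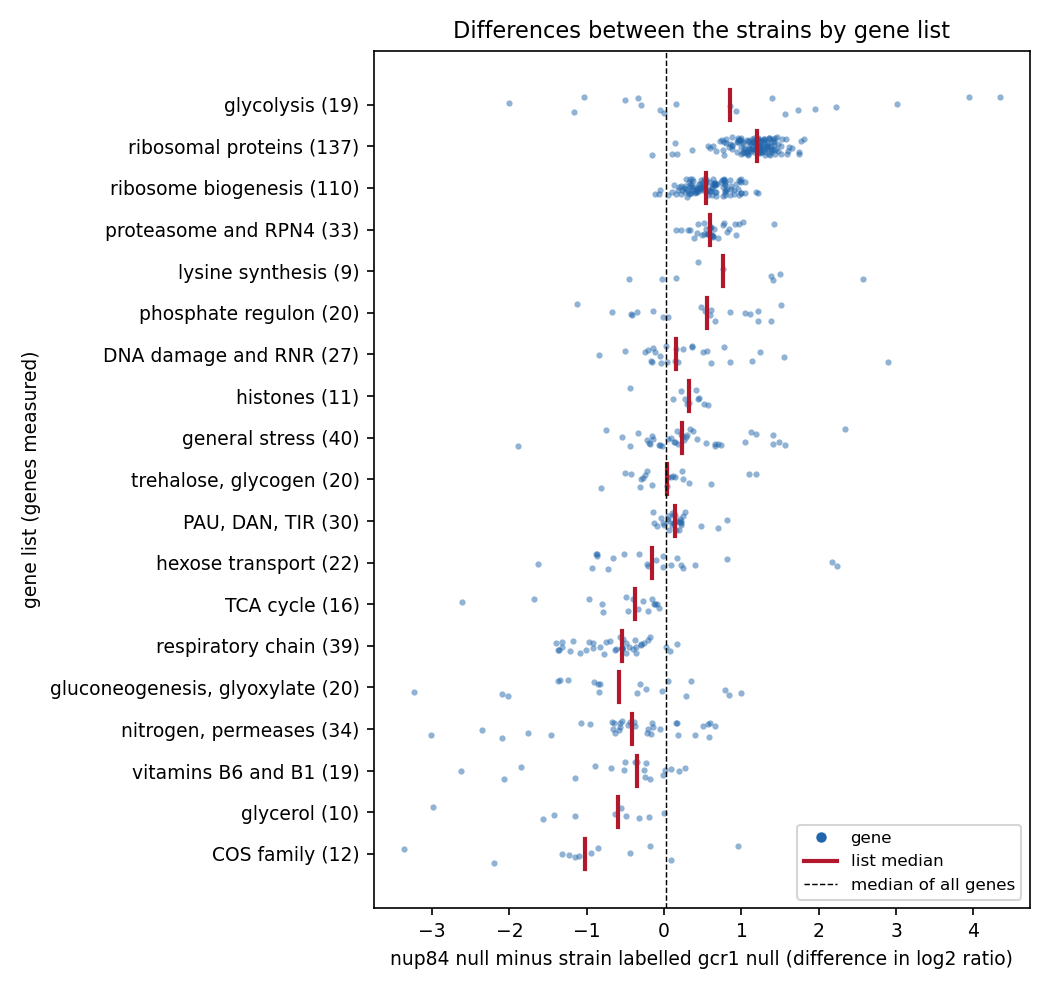
Difference between the strains in log2 ratio (x axis, nup84 null minus the strain labelled gcr1 null) for the genes of 19 lists (y axis, with the number of genes measured). Blue points are genes, red bars list medians and the dashed line the median of all genes, 0.03; ribosomal protein and proteasome points lie to the right of it but for RPL15B, TCA cycle points lie to the left, and glycolysis spreads from -2.01 at GPM2 to 4.34 at GPM1.

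Histone genes fell in both strains, 9 of 11 in the strain labelled gcr1 null (17.7% of all genes) and 7 in the nup84 null (8.09%). Their median difference of 0.32 turned to -0.02 once arrays were scaled to equal spread, so no direction is given. Subtelomeric COS genes gave 0 calls and 6 by the 8-array fit, of 12, all lower in the nup84 null, against 3.78% of all genes. COS8 had the largest of these differences, -3.37, with 2.80, 4.11, 2.89 and 5.89 in the strain labelled gcr1 null and 1.22, -1.06, 1.51 and 0.57 in the nup84 null. The arrays did not overlap, but those of sample 2 lay farther apart between the strains than those of sample 1, and COS genes are similar in sequence. Among 8 genes often used as selection markers, URA3 was called (2.32 against 0.43, -1.89 ± 0.30, adjusted p = 0.0385) and LEU2 passed in the 8-array fit (1.72 against 0.03, -1.69 ± 0.25, adjusted p = 0.00365). The labels do not name the markers of the strains, and their part in these values was not tested. The 4 genes beside NUP84 and GCR1 gave 0 calls in both fits.

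Several high ratios differed between the samples of the nup84 null. GCN4, whose product activates amino acid synthesis, read 1.05, 7.52, 1.96 and 7.31 on the nup84 null arrays and 7.27, 6.95, 6.76 and 6.75 on those labelled gcr1 null, so sample 2 of the nup84 null resembled the other strain and sample 1 did not (difference -2.47 ± 1.45, adjusted p = 0.577). HXT7, a high-affinity glucose transporter gene, read 5.64, 1.70, 5.49 and 1.88 in the nup84 null and 0.70, 2.13, 0.77 and 2.16 in the strain labelled gcr1 null, and its near-identical neighbour HXT6 split the nup84 null samples in the same way. These arrays fall into the pairs 1 with 3 and 2 with 4, as the chromosome I medians do. Of the 29 called genes 0 lie on chromosome I, which holds 89 of the 5636 genes. With so few genes on it, this count does not show that the called list is free of the shift. Of these 89 genes the 8-array fit called 12, 10 of them higher in the nup84 null, against 7.51% and 3.73% of all genes. ADE1, of purine synthesis, was 1 of the 10, with 0.82 and 2.01 in the nup84 null samples and -0.06 and -0.25 in the others. Taking the genes of chromosome I out of the called list, without a new fit, leaves 29 by construction.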

How the data were processed

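The authors deposited 1 value per probe and array, read here as a log2 ratio of Cy5 over Cy3. The log base and direction are not written in the table and were inferred from the values and the dyes in the labels. Steps for background, dye bias and filtering are not stated in the labels. Spot intensities were not used, so a dim or saturated spot cannot be recognised. Of 10807 probes, 9271 were assigned 1 gene by the platform annotation and 1536 none. All 9271 matched the gene table of assembly R64. Probes were averaged per gene (5636 genes), signs of arrays 3 and 4 turned and arrays centred on their medians (-0.162 to 0.099 before).

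Dye-swap partners are not labelled. limma 3.58.1 (R 4.3.3) was therefore fitted to pair means under both pairings, 1 with 3 and 2 with 4, and 1 with 4 and 2 with 3, keeping the larger p-value and SE (3 residual degrees of freedom). The p-values rest on 2 samples per strain. Deviations of same-numbered arrays of the strains correlated at 0.443 to 0.628, but those of other arrays of the same dye at 0.457 to 0.584, so these values cannot tell the number from the dye. Sample 1 minus sample 2 correlated at -0.005 between these strains, 0.552 between the strain labelled gcr1 null and the double null, and 0.099 between the nup84 null and the double null. The scripts were tested on simulated data.

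Genes and lists were chosen with earlier results of these data known. The rule named NUP84, GCR1, the 12 highest and 12 lowest called differences without overlap between arrays, the 6 largest differences of each response class, the 3 largest called differences of each list and direction (with none called, the largest), and all members of described lists of up to 12 genes. Other genes were chosen after their values were seen. Promoter motifs were not examined because no promoter sequences were used here. Alternatives covered pairing, centring, scaling, probe choice, arrays in the fit, array number as a block, variance moderation, an added 2-fold limit and leaving out each array pair. The block on pair means and the count without chromosome I were chosen after seeing the data. Plots used Python 3.11.15 with matplotlib 3.10.9.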

Additional observations from a re-analysis of the deposited data

Results flagged for a closer look

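Among the 4 arrays of each strain, for the 29 called genes (58 gene and strain pairs), 2 single arrays lay far from the other 3 by Dixon's test, and chance alone gives about 1 in 20. Both were array 1 of the strain labelled gcr1 null. DAK2 read 4.165 there, above 3.20 to 3.36 on the other arrays, and SPO20 read 2.509, below 3.28 to 3.42. Both genes stayed apart from the nup84 null on all arrays. The cause was not tested.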

How the results depend on the processing

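The fit of 12 arrays called 29 differences, 7 higher and 22 lower in the nup84 null, with 5, 1, 16, 7 and 0 genes in the classes opposite, nup84 null only, strain labelled gcr1 null only, both the same way, and neither (the order used below). All 29 kept their direction under every setting tried, as did the 423 of the 8-array fit. Direction could change only with centring, scaling, probe choice or leaving out arrays of these 2 strains, since the other settings leave the difference itself as it is. For the 29, leaving out arrays could not change it either, because their arrays did not overlap between the strains. Genes chosen for large differences on these same arrays are also favoured to keep their direction. Of the 201 genes named by the rule 66 changed sign under at least 1 setting, 19 of them with arrays scaled to equal spread, and 0 of the 423 were among these 66. Pairing arrays 1 with 4 and 2 with 3 gave 3149 calls (1761 higher, 1388 lower; classes 324, 410, 662, 1741 and 12), and with the 4 arrays as replicates 401 (209 and 192; 31, 38, 168, 164 and 0). The 8 arrays of the 2 strains gave 423 (210 and 213; 27, 39, 154, 202 and 1), through the smaller spread that comes with leaving out the double null. Scaling to equal spread gave 46 (22 and 24; 11, 11, 11, 13 and 0), which held 23 of the 29. With the array number as a replicate block there were 1222 calls on 12 arrays (670 and 552; 85, 165, 397, 568 and 7) and 43 on pair means (16 and 27; 6, 2, 14, 21 and 0). Uncentred arrays gave 24, the first probe 29, robust moderation 28 and arrays 1 with 3 and 2 with 4 alone 29. A 2-fold limit gave 29 by construction, since the lowest called difference was 1.71. Leaving out 1 pair of arrays of 1 strain gave 0 to 3339 calls (0 to 1840 higher, 0 to 1499 lower), with 0 to 355 opposite, 0 to 430 in the nup84 null only, 0 to 781 in the strain labelled gcr1 null only, 0 to 1866 in both and 0 to 30 in neither. The high ends all come from fits that could use only the swap 1 with 4 or 2 with 3, and where a strain kept 1 pair its spread was taken from the other strains. Apart from construction, the cause of these moves was not tested. With 2 samples per strain, a difference short of the threshold does not show that the strains were alike.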

Other observations

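The double null, used here for the shared spread alone, had a chromosome of its own that stood apart. Genes of chromosome II had medians of 0.71, 0.70, 0.66 and 0.59 on its 4 arrays, against -0.10 to 0.07 on the 8 arrays of the nup84 null and the strain labelled gcr1 null. HIS4, of histidine synthesis, split the nup84 null by sample as GCN4 did, with 0.43, 2.89, -0.09 and 2.17 on arrays 1 to 4, against 1.38, 1.46, 0.73 and 0.93 in the strain labelled gcr1 null.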
